A study of Bos taurus with 8 samples.

Results

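The transcriptional coactivators YAP (*YAP1*) and TAZ (*WWTR1*), their DNA-binding partner *TEAD1*, their inhibitors *LATS2*, *AMOTL1* and *AMOTL2*, and the target genes *CCN1*, *CCN2*, *ANKRD1* and *AXL* were followed in bovine granulosa cells at low oxygen. These 10 genes were listed by name, with earlier results of these data known, and were found through the array annotation. *CCN1* is also known as CYR61 and *CCN2* as CTGF. Each of them has exactly 1 transcript cluster, the unit in which the array reports a gene, and they are 10 of 18087 genes with a cluster of their own name. At low oxygen the transcript of TAZ was 4.35-fold higher, *CCN1* 6.59-fold and *CCN2* 4.70-fold, and *AMOTL2* and *ANKRD1* rose by just under 2-fold. *YAP1* rose only 1.22-fold, and *TEAD1*, *LATS2*, *AMOTL1* and *AXL* did not pass the test.

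Total RNA came from granulosa cells of cattle (*Bos taurus*) held at low oxygen (LOL 1 to 4, 1% O2) or at normal oxygen (NOL 1 to 4, 21% O2), with 4 arrays per group. All cells came from abattoir ovaries, by aspiration of follicles of small and medium size, and were frozen, thawed and grown without serum on collagen-coated plates with FSH, IGF-1 and androstenedione. Both groups were kept at 21% O2 until day 6, when the oxygen level was set, and were harvested on day 8. Neither the labels nor the methods say that the 4 samples of a group were separate cultures, so the p-values cover only the spread from sample to sample, part or all of which may be technical.

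In the Hippo pathway, the kinases MST1 and MST2 switch on the kinases LATS1 and LATS2, which phosphorylate YAP and TAZ and keep them out of the nucleus. When this brake is weak, YAP and TAZ enter the nucleus, bind TEAD factors on DNA and switch on genes of the matrix and the cytoskeleton. Stretch, a stiff substrate and actin fibers favor this state, and angiomotin proteins hold YAP and TAZ at junctions and on actin. *CCN1*, *CCN2*, *ANKRD1*, *AMOTL2*, *LATS2* and *AXL* are widely used as readouts, and *AMOTL2* and *LATS2* in turn restrain the pathway. In the ovary, YAP is known for its part in follicle growth and in the proliferation of granulosa cells. An array reads transcripts, so phosphorylation, location and protein levels of YAP and TAZ were not measured.

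The arrays separated by oxygen level. On principal component 1, which held 73.6% of the variance, the LOL arrays lay between 33.91 and 39.83 and the NOL arrays between -37.64 and -36.42. On component 2 (6.9%), LOL 3 lay at 26.24 and all other arrays between -10.94 and 5.76, and without LOL 3 the same number of the 10 genes, 6, was higher. All 6 genes of a short list of classic low-oxygen genes were higher at LOL, by log2 differences of at least 1.52 (*CA9*, whose NOL signals were low) to 3.65. Of 9 granulosa cell markers, 5 were lower at LOL, 2 were higher and 2 did not pass the test. The aromatase gene *CYP19A1* was 7.44-fold lower, whereas *HSD17B1* was 3.83-fold higher. The linear signals of the 9 markers summed to 2930 to 3070 in the LOL arrays, against 4220 to 4340 in the NOL arrays. This sum weighs the strongest clusters most, and *CDH2*, the strongest in both groups, was itself higher at LOL (log2 difference 0.19). In this comparison 41.0% of all 24415 clusters passed an adjusted p of 0.05 in limma, 20.5% in each direction. With a fold over 2 added, which defines a call here, 4.87% were called, 2.22% higher and 2.65% lower. The median log2 difference of all clusters was 0.06.

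*WWTR1* encodes TAZ, a coactivator that has no DNA-binding domain and works through TEAD factors. Its log2 signals (transcript cluster 12682365) were 8.26, 8.11, 8.17 and 8.12 in LOL 1 to 4, against 5.86, 6.14, 6.06 and 6.12 in NOL 1 to 4. All LOL arrays lay far above all NOL arrays, with NOL 1 the lowest. The mean was 8.16 ± 0.0686 at LOL and 6.04 ± 0.128 at NOL (SD, n = 4 each), a log2 difference of 2.12 with a 95% confidence interval of 1.95 to 2.29 (standard error 0.0763, adjusted p = 5.0e-08). Among all clusters, this rise ranked 73 of 24415.

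*YAP1*, the paralog of TAZ, changed little. Its log2 signals (cluster 12730616) were 7.44, 7.30, 7.46 and 7.42 in the LOL arrays, against 7.20, 7.11, 7.04 and 7.13 in the NOL arrays. The groups did not overlap, though LOL 2, the lowest at LOL, came close to NOL 1, the highest at NOL. The log2 difference was 0.28 (standard error 0.0635, adjusted p = 0.00495), which is 1.22-fold with an interval of 1.10-fold to 1.34-fold.

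The partner *TEAD1* did not pass the test. Its log2 signals (cluster 12732913) were 7.23, 7.11, 7.13 and 7.21 at LOL, against 7.13, 7.06, 7.13 and 7.01 at NOL, and the groups overlapped. The log2 difference was 0.09 (adjusted p = 0.278), with an interval from -0.05 to 0.22 that ends at a 1.17-fold rise.

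**Figure D1:**
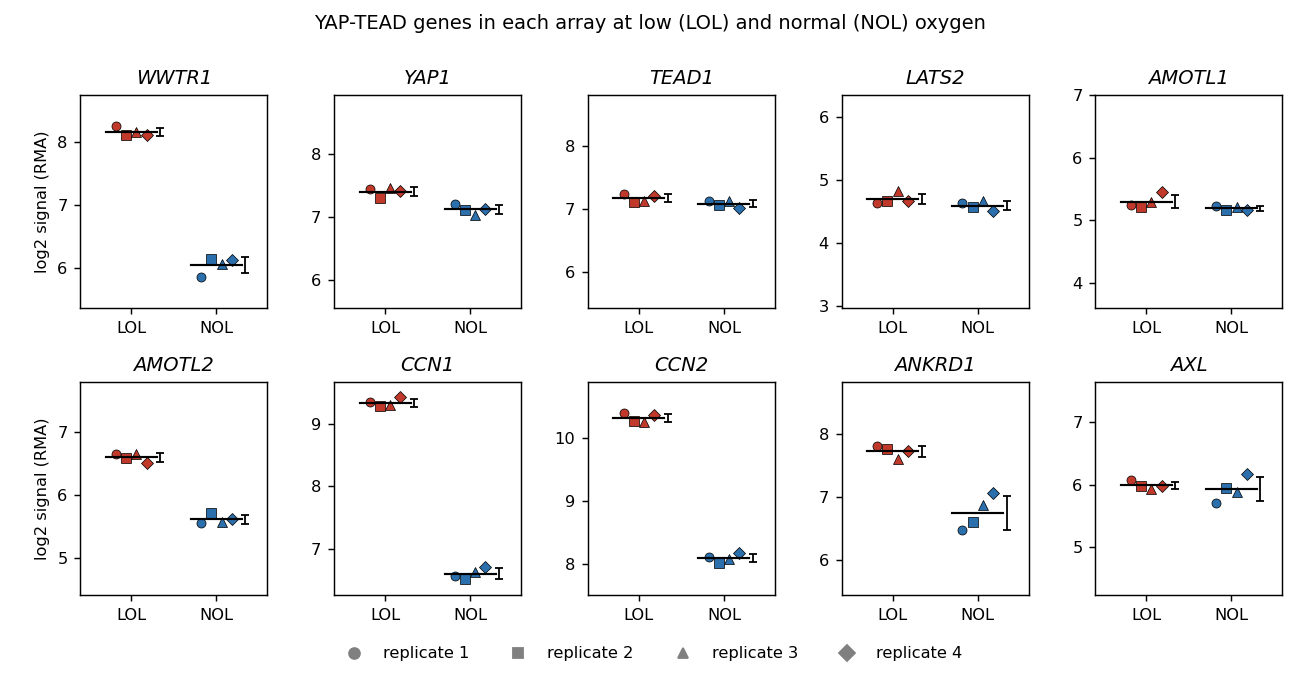
Log2 signal (RMA) of each of the 10 genes in the 4 LOL arrays (red, left) and the 4 NOL arrays (blue, right), with marker shape for the replicate, a line for the mean and a bar for the SD. Each panel spans the same log2 range around its own middle. The gap between the groups is widest in CCN1, CCN2 and WWTR1 (2.72, 2.23 and 2.12), whereas AXL, TEAD1, LATS2 and AMOTL1 overlap.

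Of the inhibitors, only *AMOTL2* passed the test. *LATS2*, the kinase that inactivates YAP and TAZ and is also their target, had log2 signals (cluster 12709303) of 4.63, 4.67, 4.82 and 4.66 at LOL, against 4.63, 4.57, 4.66 and 4.50 at NOL. LOL 3 was the highest of the 8 arrays, and the groups overlapped. The log2 difference was 0.10 (interval -0.04 to 0.25, adjusted p = 0.241).

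*AMOTL1*, an angiomotin-like protein of junctions and actin fibers, had log2 signals (cluster 12733332) of 5.25, 5.21, 5.29 and 5.45 at LOL, against 5.23, 5.16, 5.22 and 5.16 at NOL. LOL 4 was the highest, and the other LOL arrays lay within or close to the NOL range. It differed by 0.11 on the log2 scale (interval -0.04 to 0.26, adjusted p = 0.232).

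*AMOTL2*, its close relative and a direct TEAD target, had log2 signals (cluster 12681779) of 6.65, 6.60, 6.66 and 6.51 at LOL, against 5.56, 5.72, 5.58 and 5.62 at NOL. Every LOL array was above every NOL array. The log2 difference was 0.98 (standard error 0.0638, adjusted p = 1.4e-06), which is 1.98-fold and thus just under the fold threshold. It was past that threshold at 1.02 without LOL 4, at 1.02 without NOL 2 and at 1.04 under quantile normalization.

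The matricellular proteins *CCN1* and *CCN2*, which are secreted, bind integrins and act on cell adhesion and the matrix, rose most among the 10 genes. *CCN1* had log2 signals (cluster 12843892) of 9.34, 9.28, 9.29 and 9.42 at LOL, against 6.58, 6.52, 6.64 and 6.71 at NOL. *CCN2* (cluster 12899445) had 10.40, 10.28, 10.26 and 10.37 at LOL, against 8.11, 8.01, 8.08 and 8.18 at NOL. In both genes the arrays of a group lay within 0.19 of each other on the log2 scale, and the groups were far apart. The log2 differences were 2.72 for *CCN1* (interval 2.57 to 2.87, adjusted p = 6.2e-09) and 2.23 for *CCN2* (interval 2.09 to 2.37, adjusted p = 1.3e-08). Their rises ranked 32 and 63 among all 24415 clusters.

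*ANKRD1*, an ankyrin repeat protein of muscle sarcomeres and of the nucleus, rose by a similar amount as *AMOTL2* but with less even arrays. Its log2 signals (cluster 12821871) were 7.81, 7.76, 7.61 and 7.74 at LOL, against 6.47, 6.60, 6.88 and 7.07 at NOL. The groups did not overlap, and the NOL arrays spread over 0.60, compared with 0.20 in the LOL arrays. The log2 difference was 0.97 (standard error 0.123, interval 0.70 to 1.25, adjusted p = 1.2e-04), or 1.97-fold. It crossed the fold threshold without LOL 3 (1.01), without NOL 3 (1.02), without NOL 4 (1.08) and under quantile normalization (1.02).

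*AXL*, a receptor tyrosine kinase for the ligand GAS6, had log2 signals (cluster 12751873) of 6.07, 5.97, 5.93 and 5.98 at LOL, against 5.71, 5.95, 5.88 and 6.17 at NOL. NOL 1 was the lowest and NOL 4 the highest of the 8 arrays, so the NOL group enclosed the LOL group. *AXL* differed by 0.06 on the log2 scale (interval -0.15 to 0.27, adjusted p = 0.644), and it was -0.01 under median centring and without NOL 1.

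Of the 10 genes, 6 were thus higher, none lower and 4 not past the adjusted p, beside 20.5% of all clusters, weak ones included, that were higher. The arrays of the groups did not overlap in these 6 genes, beside 19.1% of all clusters without overlap and higher at LOL, and 39.4% in either direction. With the fold threshold, 3 were called higher, beside 2.22% of all clusters, 5 under quantile normalization and 4 without LOL 3. The same 3, *CCN1*, *CCN2* and *WWTR1*, also passed when the fold itself was tested against 2 with limma's treat, as did 1.13% of all clusters in that direction and 2.01% in either. The median log2 difference of the 10 genes was 0.63. The shares of all clusters include many weak ones, since the median log2 signals ran from 4.06 in NOL 4 to 4.18 in LOL 3. In contrast, 0 of the 10 genes had means under 4 in both groups. Shares among clusters of similar signal were not computed, so whether these counts exceed those of comparable clusters was not tested. The same limit holds for the shares set beside the lists below.

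In 4 of 5 pairs of close relatives, the genes changed by unequal amounts. In each array, the log2 signal of a gene minus that of its relative was taken and compared between the groups by an exact two-sided permutation test, whose smallest p with 4 arrays against 4 is 0.0286. *WWTR1* minus *YAP1* was 0.76 ± 0.0638 at LOL and -1.07 ± 0.177 at NOL (SD, n = 4 each), a shift of 1.83. *AMOTL2* minus *AMOTL1* was 1.31 ± 0.164 at LOL and 0.43 ± 0.104 at NOL, a shift of 0.88. *CCN1* minus *CCN2* lay between -1.06 and -0.95 in the LOL arrays and between -1.53 and -1.44 in the NOL arrays, a shift of 0.49. In these 3 pairs the groups did not overlap, and the exact test gave p = 0.0286 each (0.0357 adjusted over the 5 pairs). That smallest p is reached whenever the groups do not overlap, as was so for 39.4% of all single clusters. The share of other gene pairs that reach it was not computed, so the count of 4 of 5 has no background.

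*LATS2* minus *LATS1* was -3.20 ± 0.104 at LOL and -2.96 ± 0.0739 at NOL (SD, n = 4 each), a shift of -0.24 (exact permutation p = 0.0286, 0.0357 adjusted). Here the relative outside the 10 genes moved more, since *LATS1* rose with a log2 difference of 0.34. *TEAD4* minus *TEAD1* shifted by 0.04 (exact permutation p = 0.771, 0.771 adjusted), with overlapping arrays. Only the shifts can be read from these differences, since the levels of different clusters are not on a common scale.

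**Figure D2:**
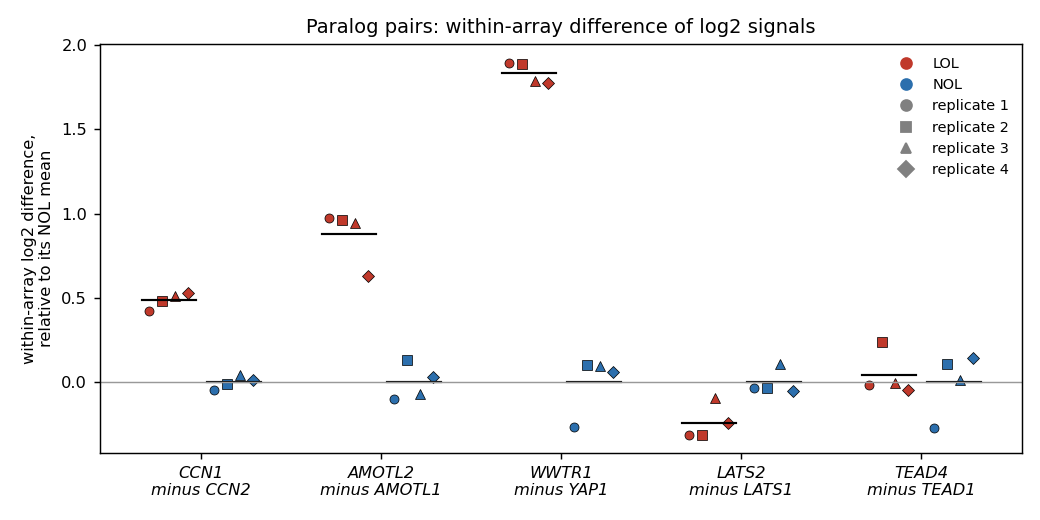
Within-array difference of log2 signals in 5 pairs of related genes (vertical axis, log2 units relative to the NOL mean of the pair), with a point per array, LOL in red on the left and NOL in blue on the right of each pair, and a line for the mean. The LOL arrays lie above the NOL arrays by 1.83 for WWTR1 minus YAP1, 0.88 for AMOTL2 minus AMOTL1 and 0.49 for CCN1 minus CCN2, and below them by a shift of -0.24 for LATS2 minus LATS1.

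Other target genes of YAP and TAZ were taken from a 22-gene signature that is often used as a readout of these coactivators, and to which 6 of the 10 genes belong. Of the other 15 signature genes with a cluster, 10 rose, 2 fell and 3 did not pass, beside 20.5% of all clusters in each direction. The median log2 difference of the 15 genes was 0.28. *GADD45A*, a growth arrest and DNA damage gene, rose 3.67-fold (adjusted p = 1.2e-06), and *CRIM1*, a membrane protein that binds growth factors, rose 3.57-fold (adjusted p = 9.0e-08). *TGFB2*, a ligand of the TGF-beta family, rose 2.34-fold (adjusted p = 8.9e-05), and *NT5E*, the ecto-enzyme CD73 that makes adenosine, 2.13-fold (adjusted p = 5.2e-07). A second cluster of *NT5E* had a log2 difference of 1.45. The genes that fell were *DOCK5*, an activator of Rac (log2 difference -0.85), and *MYOF*, a membrane repair protein (-0.33). *RBMS3* and *FJX1*, the strongest signals among those not past the test, had log2 differences of -0.06 each.

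A further 11 genes that are commonly given as YAP or TAZ targets moved both ways. Of these, 5 rose, 3 fell and 3 did not pass, beside 20.5% of all clusters in each direction. The median log2 difference of the 11 genes was 0.07, close to that of all clusters. *THBS1*, a matrix protein that activates latent TGF-beta, rose 2.73-fold (adjusted p = 1.8e-07), and *DLC1* 2.36-fold (adjusted p = 2.9e-06). *ETV5*, an ETS transcription factor, was at least 2.52-fold lower (adjusted p = 8.7e-07), where "at least" is written, by a convention set after the values were seen, if the group with less signal averaged under 4 on the log2 scale. *BIRC5*, an inhibitor of apoptosis that is made in dividing cells, was 2.12-fold lower (adjusted p = 6.4e-06), and *TGM2*, a transglutaminase, was 1.57-fold lower. The count of 5 includes *EDN1* and *SLIT2*, both at mean log2 signals under 3 in both groups, so that no size is given for their rise. Without 1 of the arrays, whichever it was, 3 or 4 rose. *DAB2* and *FLNA*, at log2 differences of -0.02 and 0.07, were not past the test.

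**Figure D3:**
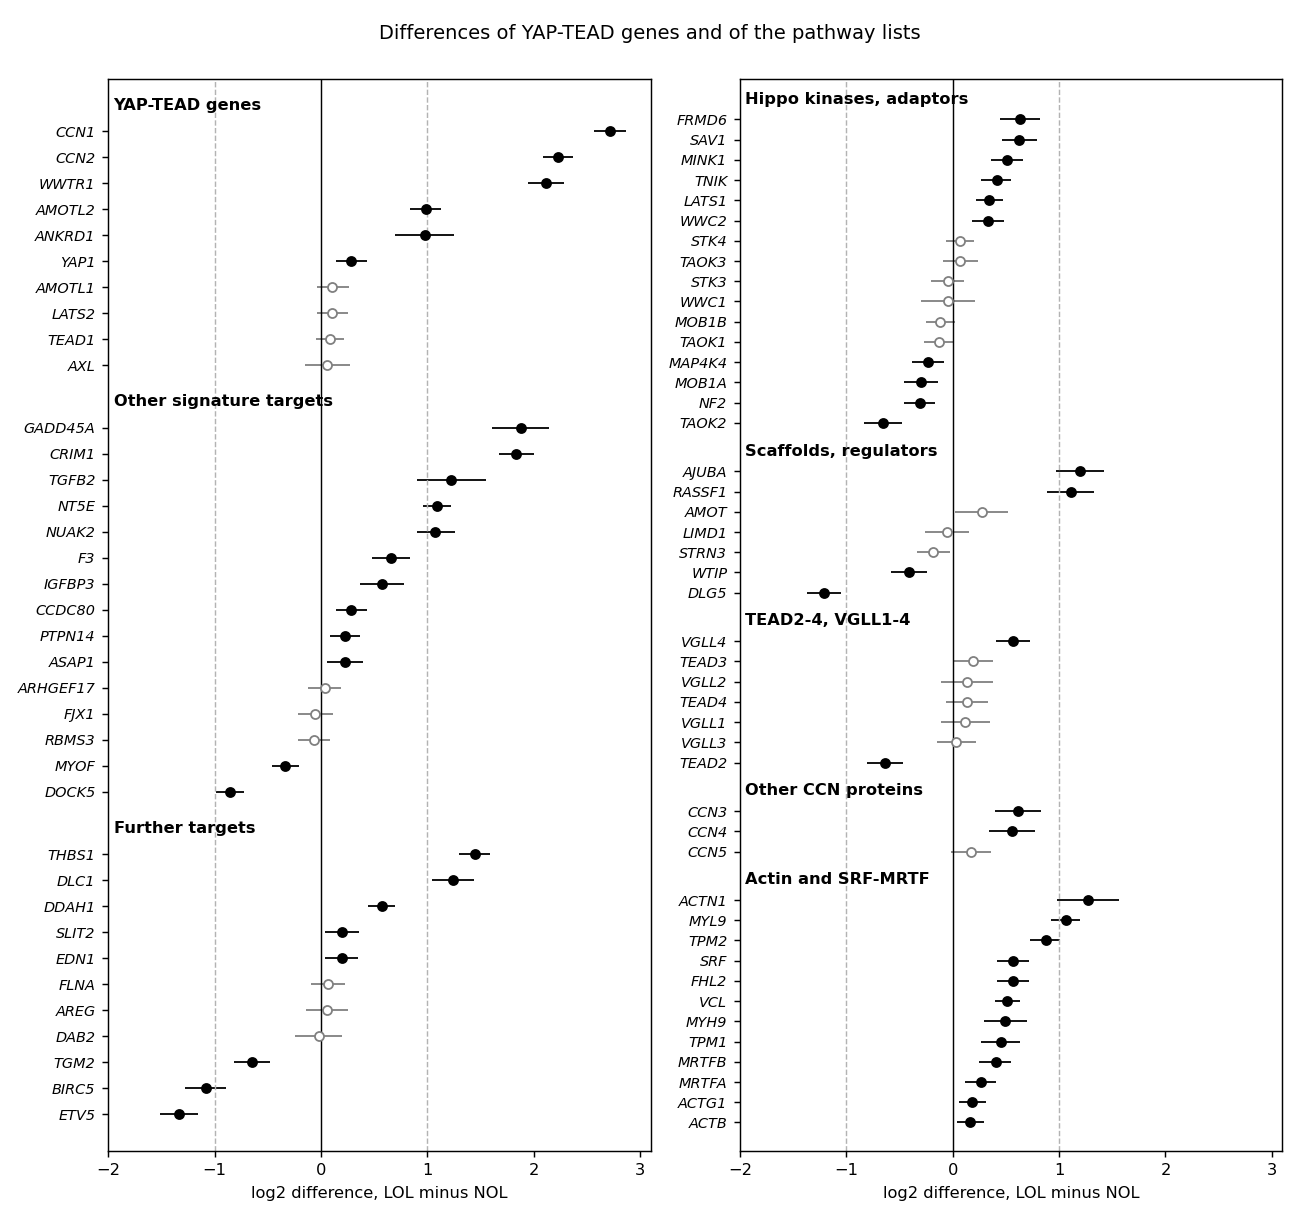
Log2 difference (LOL minus NOL) with its 95% confidence interval for the 10 genes and for the genes of 7 pathway lists. Filled points passed an adjusted p of 0.05 over all clusters, open points did not, and the dashed lines mark a fold of 2. The largest rises are those of CCN1, CCN2 and WWTR1, all 12 actin and SRF-MRTF genes lie to the right of 0, and the Hippo kinases lie on both sides within -0.66 and 0.63.

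The upstream kinases and adaptors showed no common direction. Of 16 genes, 6 rose, 4 fell and 6 did not pass, beside 20.5% of all clusters in each direction. The median log2 difference of the 16 genes was 0.01, and none of them reached a fold of 2. *SAV1*, the scaffold of the MST kinases, rose 1.54-fold (adjusted p = 8.6e-05), and *FRMD6*, a membrane-linked adaptor, rose 1.55-fold (adjusted p = 2.3e-04). *MINK1*, a kinase of the MAP4K family that can act on LATS, rose 1.42-fold, and *TAOK2*, which acts on the MST kinases, was 1.57-fold lower (adjusted p = 8.8e-05). *STK3*, which encodes MST2, and *TAOK1* were not past the test, at log2 differences of -0.04 and -0.13.

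Of 7 scaffolds and regulators of YAP, TAZ or LATS, 2 rose, 2 fell and 3 did not pass, beside 20.5% of all clusters in each direction. *AJUBA*, a LIM protein that binds and restrains LATS, had log2 signals of 6.12, 6.22, 6.14 and 6.33 at LOL, against 4.76, 5.08, 4.95 and 5.23 at NOL, and was 2.29-fold higher (adjusted p = 7.8e-06). Its relative *WTIP* was 1.33-fold lower, and its relative *LIMD1*, at a log2 difference of -0.06, was not past the test. *DLG5*, a scaffold of cell polarity, had log2 signals of 6.28, 6.30, 6.32 and 6.41 at LOL, against 7.62, 7.66, 7.42 and 7.45 at NOL, and was 2.31-fold lower (adjusted p = 9.4e-07). *RASSF1*, which binds the MST kinases, was at least 2.16-fold higher. The phosphatase subunit *STRN3* stood at -0.18 on the log2 scale (adjusted p = 0.0635), and under 5 of the alternatives it did pass.

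Among the other TEAD factors and the vestigial-like proteins, which compete with or replace YAP and TAZ on TEAD, 1 of 7 rose, 1 fell and 5 did not pass. The share of all clusters was 20.5% in each direction. *VGLL4*, a repressor of TEAD activity, rose 1.48-fold (adjusted p = 1.5e-04). *TEAD2* was 1.56-fold lower (adjusted p = 7.2e-05). *TEAD3* stood at a log2 difference of 0.19 (adjusted p = 0.102) and *VGLL3* at 0.04. In the CCN family, *CCN3* rose by a log2 difference of at least 0.61 and *CCN4* by 0.56, whereas *CCN5* stood at 0.17 (adjusted p = 0.138). Whether these differences differ from those of *CCN1* and *CCN2* was not tested.

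Genes of the actin cytoskeleton and of the SRF-MRTF factors, which respond to the same actin state as YAP and TAZ, rose in all 12 cases. Of all clusters, 20.5% were higher. The median log2 difference of the 12 genes was 0.51, against 0.06 for all clusters. At least 10 of them rose under each of the 16 alternatives run for this list, which do not include the test of the fold against 2. *ACTN1*, an actin cross-linker, rose 2.41-fold (adjusted p = 3.0e-05), *MYL9*, a myosin light chain, 2.09-fold (adjusted p = 8.7e-07) and *TPM2*, a tropomyosin, 1.83-fold (adjusted p = 2.8e-06). The factor *SRF* rose 1.48-fold (adjusted p = 9.5e-05). The cytoplasmic actins *ACTB* and *ACTG1* had the smallest rises, at log2 differences of 0.17 and 0.18. Over the 7 lists, 38 of 71 genes rose, 12 fell and 21 did not pass, beside 20.5% of all clusters in each direction.

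Markers of other cell types were set beside these results. Of 12 fibroblast and smooth muscle markers, 10 were higher and none lower at LOL, beside 20.5% of all clusters in each direction. The linear signals of these 12 markers summed to 5010 to 5220 in the LOL arrays, against 3610 to 4000 in the NOL arrays. Levels of different clusters are not on a common scale, and this sum weighs the strongest cluster, *LUM*, most. *TAGLN*, an actin-binding protein of smooth muscle, was 8.89-fold higher, whereas the pericyte marker *RGS5* stayed at mean log2 signals of 2.36 at LOL and 2.28 at NOL. The fibroblast genes *LUM* and *DCN* were strong in both groups, at 11.46 and 9.41 at LOL, against 11.30 and 8.54 at NOL. The part of these cells in the rise of *CCN1*, *CCN2* and *WWTR1* was not tested. Of 6 endothelial markers, 5 had means under 4 in both groups, as had 3 of 5 leukocyte markers. Only *TEK* of the endothelial markers (adjusted p = 0.0131) and *CD68* of the leukocyte markers (adjusted p = 0.033) passed, both higher at LOL. The theca markers *CYP17A1* and *GLI1* were under 4 in both groups, *CYP17A1* at 3.35 at LOL and 3.38 at NOL. In contrast, *INSL3* was at 8.48 at LOL and 7.44 at NOL, *NR2F2* at 6.49 and 6.42 and *PTCH1* at 5.80 and 5.87. Of 5 theca markers, only the hormone *INSL3* passed the test, at 2.05-fold higher, and 4 did not. Of 4 surface epithelium markers, 2 were higher, *MSLN* 1.66-fold, and 2 did not pass. In bulk RNA, fewer cells of a type and less RNA per cell cannot be told apart.

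The uneven NOL arrays of *ANKRD1* and *AXL* recurred in several of these genes. In *TAGLN*, the LOL arrays had log2 signals of 8.81, 8.72, 8.66 and 8.71, against 5.26, 5.33, 5.68 and 6.02 in the NOL arrays. In *ACTN1* they had 7.62, 7.59, 7.33 and 7.57 at LOL, against 5.92, 6.18, 6.39 and 6.55 at NOL. In the fibroblast marker *THY1* they had 5.98, 5.90, 5.90 and 5.81 at LOL, against 4.94, 5.21, 5.68 and 5.97 at NOL, so that its groups overlapped (adjusted p = 0.0884). NOL 1 was the lowest and NOL 4 the highest NOL array in each of these genes, and in 8.94% of all clusters. Of the 10 genes, *ANKRD1* and *AXL* had this pattern, and so had 4 of the 12 fibroblast and smooth muscle markers, 3 of the 12 actin and SRF-MRTF genes and 5 of the 11 further targets. It was seen in 2 of the 7 other TEAD and vestigial-like genes, 1 of the 7 scaffolds, 1 of the 16 kinases and adaptors, 0 of the 15 other signature genes and 0 of the 3 other CCN genes. It was as frequent in the granulosa markers, at 3 of 9, as in the fibroblast and smooth muscle markers. The theca markers had it in 2 of 5 genes, the low-oxygen genes in 2 of 6 and the leukocyte markers in 1 of 5. No endothelial marker (0 of 6) and no surface epithelium marker (0 of 4) had it. The pattern and these genes were chosen after their values were seen. *CCN1*, *CCN2* and *WWTR1* spread less at NOL, over 0.19, 0.17 and 0.28 on the log2 scale.

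**Figure D4:**
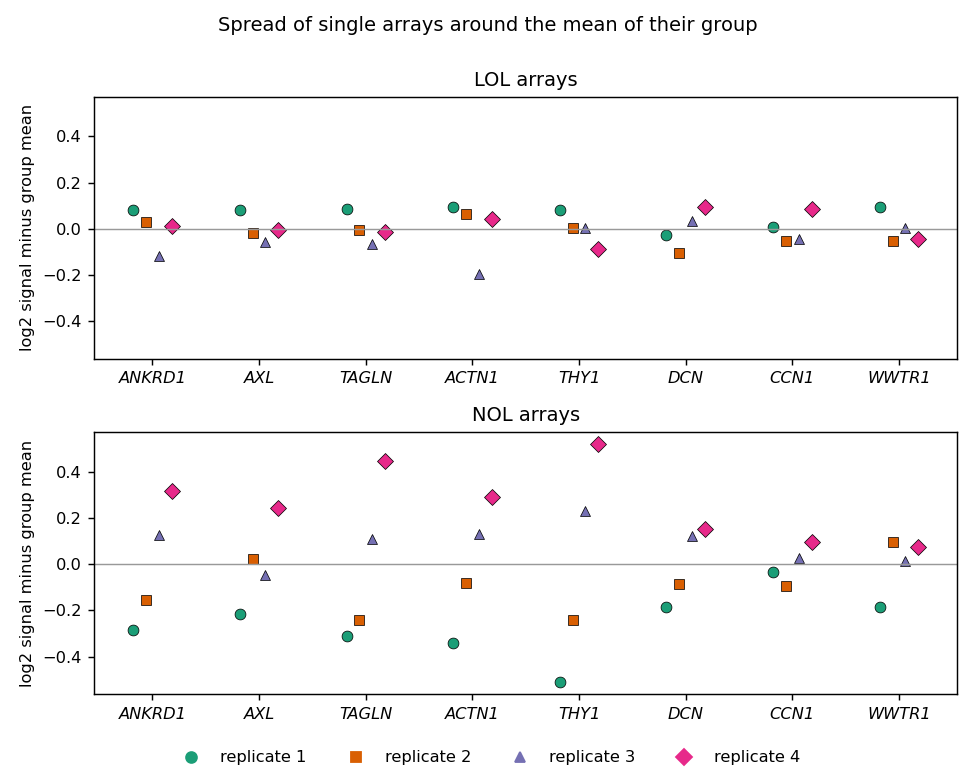
Log2 signal of single arrays minus the mean of their own group (vertical axis) for 8 genes, with the LOL arrays above, the NOL arrays below, and colour and shape for the replicate. At NOL, replicate 1 is lowest and replicate 4 highest in ANKRD1, AXL, TAGLN, ACTN1, THY1 and DCN, whereas the LOL arrays lie close together.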

How the data were processed

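RNA from 4 LOL and 4 NOL samples was hybridized to GeneChip Bovine Gene 1.0 ST arrays, each sample on its own array with biotin as the single label. The deposited values are log2 signals that the authors obtained by robust multichip averaging (RMA), that is, background correction, normalization across arrays and a summary of probes per transcript cluster. The version of RMA is not given in the sources used here. The values were used as deposited. Arrays have no sequencing depth, and their number limits the precision.

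LOL minus NOL was tested for all 24415 clusters in a fit of both groups (limma 3.58.1, R 4.3.3, moderated variances, two-sided), with Benjamini-Hochberg adjustment over all clusters. The study's methods name an analysis of variance with a false discovery rate of 0.05 and a fold of 2. The fit was tested on simulated data. Exact permutation tests used scipy 1.17.1.

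Names come from the array annotation, with 18550 clusters of 1 name, 595 of several and 5270 of none. Of several clusters of a gene, the one with the highest mean over all 8 arrays was used. Of 75 genes in the 7 pathway lists, 71 had a cluster of their own name. The 10 genes and the lists were chosen with earlier results of these data known. Of each list, up to 4 genes past the test with the largest differences and up to 2 others with the strongest signals are named, and others were named after their values were seen. Alternatives were analysis of variance without moderation, a variance trend, array weights, quantile normalization, median centring, a filter on signals under 4, a replicate block, leaving out each array and averaging clusters of a gene, and, added after seeing the data, a test of the fold against 2 and quantile normalization without LOL 3. Sequences of promoters and proteins were not analysed here.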

Additional observations from a re-analysis of the deposited data

Results flagged for a closer look

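In 45 genes named from the 10 and from the pathway lists, each group of 4 arrays was searched for an array that lies apart, which chance gives in about 5% of groups. No array lay apart in the 10 genes. In *CCN4*, LOL 2 had a log2 signal of 4.92, below the other LOL arrays at 5.19 to 5.21. In *DAB2*, LOL 2 had 8.32, above the other LOL arrays at 8.25 to 8.26. These are 2 of 90 groups.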

How the results depend on the processing

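Under all alternatives but a test of the fold against 2, 6 of the 10 genes were higher and none lower. Log2 differences of single genes were taken in 16 alternatives, without the 2 added after seeing the data. They lay between 2.06 and 2.18 for *WWTR1*, 2.65 and 2.75 for *CCN1*, 2.17 and 2.26 for *CCN2* and 0.22 and 0.34 for *YAP1*. With the fold tested against 2, chosen after seeing the data, 3 of the 10 were higher, and of all clusters 490 passed, 277 higher and 213 lower, against 10016 past the adjusted p and 542 and 647 called without it. Of the 10, 5 were called higher under quantile normalization, with all arrays and also without LOL 3 (a setting chosen after seeing the data), and 3 to 4 without 1 array. *AXL* stood at -0.01 under median centring and between -0.01 and 0.14 without 1 array. Of the further targets, 3 rose with a variance trend, quantile normalization, median centring, the filter on low signals or the replicate block, and 3 to 4 without 1 array. Under quantile normalization, 2 of the TEAD and vestigial-like genes were higher, and *DAB2*, *FJX1*, *LIMD1*, *RBMS3* and *STK3* turned to 0.00, 0.02, 0.01, 0.03 and 0.01. *VGLL3* turned to -0.03 under median centring. Without 1 array, *VGLL3* lay between -0.03 and 0.08, *DAB2* between -0.12 and 0.05 and *LIMD1* between -0.12 and 0.02. The filter on low signals left out *EDN1* and *SLIT2*, whose signals were low in both groups. Median centring shifted all differences alike, and the median log2 difference of all clusters went from 0.06 to -0.01. The cause of the other changes was not tested.

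With 3 arrays against 4, the smallest p of the exact permutation test is larger, and without any 1 array its adjusted p was 0.0714 in each pair but *TEAD4* and *TEAD1*. The shifts then lay between 1.75 and 1.87 for *WWTR1* minus *YAP1*, 0.85 and 0.96 for *AMOTL2* minus *AMOTL1*, 0.47 and 0.51 for *CCN1* minus *CCN2*, -0.29 and -0.20 for *LATS2* minus *LATS1*, and -0.05 and 0.09 for *TEAD4* minus *TEAD1*.

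The labels do not say whether samples of the same replicate number were paired. Arrays of the same number had correlations of -0.03, 0.02, 0.11 and 0.03 between their deviations from the group means. The closest NOL array was NOL 3 for LOL 3 and NOL 4 for each other LOL array. Such low correlations do not settle whether the samples were paired. With the replicate block, 6 of the 10 genes were again higher and 3 called higher. Beside the further targets, 9 signature genes and 10 actin and SRF-MRTF genes were then higher, against 10 and 12 without the block.

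*STRN3* passed the test with a variance trend, median centring, the filter on low signals, averaged clusters or without NOL 3, *TEAD3* under quantile normalization and *TAOK1* under median centring.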
